A study of Mus musculus with 6 samples.

Results

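The chondrogenic SOX trio consists of *Sox9*, *Sox5* and *Sox6*, which encode the transcription factors that set up and maintain the cartilage program. The members were chosen by symbol, and each matched 1 of the 32286 genes in the count matrices, giving 3 genes in all. They were followed in "Digits in a Dish" (DID) cultures, in which the distal forelimb mesenchyme of E11.5 embryos of the outbred CD-1 mouse strain was dissociated, plated at high density and left to form digit-like and carpal-like elements. The cells were wild type, and the tissue of several embryos was pooled. Droplet-based single-cell 3′ RNA-seq was run on Day 2, Day 7 and Day 10 of culture, with 2 independent cultures per day, named replicates A and B, so that all 6 libraries come from wild-type limb cells that differ in time in culture. The question asked of the trio was how its level changed from day to day, and how it was spread over cells with transcripts of *Matn1* (a matrix protein of cartilage), *Tnmd* (a tendon glycoprotein), *Cnn1* (an actin-binding protein of contractile cells) and *Prg4* (the lubricin of joint surfaces).

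SOX9 belongs to the SoxE group and is needed for mesenchymal cells to condense and become chondrocytes. SOX5 and SOX6 are SoxD proteins, which have the same kind of DNA-binding HMG box but no transactivation domain of their own, and act beside SOX9 on enhancers of cartilage matrix genes such as *Col2a1* and *Acan*. In the growth plate, the trio is known to be high in proliferating chondrocytes and to decline as cells become hypertrophic, while tendon, joint and limb mesenchyme progenitors can also carry *Sox9*.

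In the GENCODE annotation of mouse build GRCm38, *Sox9* (ENSMUSG00000000567) lies on chromosome 11 from 112782224 to 112787760 on the plus strand, a span of 5.537 kb with 1 annotated transcript. *Sox5* (ENSMUSG00000041540) lies on chromosome 6 from 143828425 to 144781977 on the minus strand and spans 953.553 kb, with 14 transcripts, of which 7 are coding. *Sox6* (ENSMUSG00000051910) lies on chromosome 7 from 115470872 to 116038796 on the minus strand and spans 567.925 kb, with 16 transcripts, of which 10 are coding. The SoxD genes are thus far longer than *Sox9* and have several starts. The 250 bases upstream of a RefSeq start (GRCm38.p6) are shown for *Sox5* and *Sox6*, because these 2 genes moved together by day and because the HMG boxes of SOX proteins recognise variants of a short core, ACAAT. Capitals mark this core, searched on both strands (ACAAT or ATTGT).
Sox5: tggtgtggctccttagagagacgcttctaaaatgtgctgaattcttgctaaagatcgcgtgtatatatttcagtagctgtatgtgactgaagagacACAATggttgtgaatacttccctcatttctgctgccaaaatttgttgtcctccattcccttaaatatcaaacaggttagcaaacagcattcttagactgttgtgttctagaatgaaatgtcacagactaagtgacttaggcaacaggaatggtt
Sox6: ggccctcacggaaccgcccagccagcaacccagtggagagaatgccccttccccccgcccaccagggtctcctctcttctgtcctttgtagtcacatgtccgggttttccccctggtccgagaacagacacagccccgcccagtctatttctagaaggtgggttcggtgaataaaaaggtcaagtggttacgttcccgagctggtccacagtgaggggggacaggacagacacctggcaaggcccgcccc
The *Sox5* window, chr6:143947107-143947356 on the minus strand, lies upstream of an internal start used by 1 coding transcript. It holds 1 core, on the forward strand, whose first base lies 154 bases upstream of the start (chr6:143947256-143947260). The *Sox6* window, chr7:116031048-116031297 on the minus strand, is 1 of 6 listed for the gene, serves 2 coding transcripts and holds 0 cores. Of all 32851 windows of the same length, 9086 (27.7%) hold the core, so a single match is a description of letters only. The GC content was 39.6% in the *Sox5* window and 60.8% in the *Sox6* window, beside a median of 52.4%.

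After the cell filters, the libraries held 9448 to 16486 cells and 178022112 to 260245417 UMIs (unique molecular identifiers, 1 per captured transcript). Day 2 replicate B stood apart in depth: its median was 3871 UMIs per cell and 41.4% of its cells had fewer than 3000, against medians of 8062 to 24197 elsewhere, so values that rest on it are also given without it where they moved. Pairs of libraries shared 24 to 67 cell barcodes, at most 0.543% of the smaller library. Summed markers of other cell types also moved with day. Macrophage genes, with 6 of 6 found in every library, summed to 23.1 and 11.4 counts per 1000000 UMIs (CPM) on Day 2, 25.5 and 36.0 on Day 7 and 96.9 and 122 on Day 10. Muscle genes, with 6 of 6 found in every library, summed to 536 and 413 CPM, 49.7 and 21.3 CPM, and 3.24 and 8.48 CPM. The summed chondrocyte list (9 of 9 found in every library) was at 1315 and 1452 CPM on Day 2, 17355 and 16003 on Day 7 and 10736 and 9811 on Day 10. From Day 7 to Day 10 the contractile list went from 2797 and 2976 to 4588.5 and 4785.5 CPM. The tenocyte list went from 122 and 121 to 200 and 183, although *Mkx* and *Kera* in it fell. The articular list went from 878 and 791 to 1125 and 1050. Most of this sum was *Thbs1*, whose mean by day (scaled as below) went from 808 to 1058 CPM. *Prg4* rose from 37.2 to 63.3, while *Gdf5* (10.5 to 2.42), *Creb5* (22.7 to 10.2), *Erg* (16.3 to 15.2) and *Cilp* (0.095 to 0.065) fell. The articular sum is therefore not a measure of articular cells. The part of these changes in cell makeup in the results on whole cultures was not tested, and in sums over a whole culture fewer cells of a type and less RNA per cell cannot be told apart.

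*Sox9* had 40449 to 75372 UMIs per library, and its level fell late. In sums over all cells of a culture, scaled by the trimmed mean of M values (TMM) to CPM, *Sox9* was at 326 and 355 CPM in Day 2 replicates A and B, at 313 and 302 CPM in the Day 7 replicates, and at 200 and 182 CPM in the Day 10 replicates. Both Day 10 cultures lay below all 4 earlier cultures, whereas Day 2 and Day 7 lay close to each other without overlapping. The difference between Day 7 and Day 2 was -0.15 on the log2 scale (SE 0.068) and did not pass the threshold (edgeR quasi-likelihood test, adjusted p = 0.0799), in a comparison in which 70.3% of all genes tested were called. It passed in a DESeq2 fit (-0.17), with every cell thinned to 2000 UMIs (-0.39, adjusted p = 0.000899), and without Day 2 replicate A (-0.20, adjusted p = 0.0232), and without Day 2 replicate B it was -0.09. From Day 7 to Day 10 *Sox9* fell 1.61-fold (log2 -0.69, SE 0.069, adjusted p = 0.000115), where 52.2% of genes were called. From Day 2 to Day 10 it was 1.79-fold lower (log2 -0.84, adjusted p = 5.02e-06), where 77.3% were called.

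*Sox5* was slightly higher on Day 7 and then fell, by a larger fold than *Sox9*, although the 2 falls were not tested against each other. *Sox5* was at 72.5 and 75.0 CPM on Day 2, 82.4 and 82.8 CPM on Day 7, and 35.4 and 36.1 CPM on Day 10, each time in replicates A and B. Its 2 Day 7 cultures were the highest of the 6 and its 2 Day 10 cultures the lowest, with no overlap between days. *Sox5* rose 1.12-fold from Day 2 to Day 7 (log2 0.16, SE 0.047, adjusted p = 0.0122), a call that was lost without either Day 7 library (0.18 without replicate A, 0.17 without replicate B). It fell 2.31-fold from Day 7 to Day 10 (log2 -1.21, SE 0.047, adjusted p = 2.52e-06) and was 2.06-fold lower on Day 10 than on Day 2 (log2 -1.04, adjusted p = 1.27e-07).

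*Sox6* followed the order of *Sox5*. Its level was 58.9 and 56.0 CPM on Day 2, 67.1 and 69.9 CPM on Day 7 and 33.5 and 36.0 CPM on Day 10. Again the Day 7 cultures were the highest and the Day 10 cultures the lowest, without overlap. *Sox6* rose 1.19-fold from Day 2 to Day 7 (log2 0.25, SE 0.056, adjusted p = 0.00326) and fell 1.97-fold from Day 7 to Day 10 (log2 -0.98, SE 0.057, adjusted p = 1.19e-05). The Day 10 against Day 2 difference was -0.73 (adjusted p = 3.44e-06), but with all cells thinned to 2000 UMIs, so that each cell weighed the same, it was -0.22 and no longer passed (adjusted p = 0.198). Without Day 2 replicate B, the Day 10 against Day 2 differences were -0.77 for *Sox9*, -1.02 for *Sox5* and -0.76 for *Sox6*, and the Day 7 against Day 2 differences of *Sox5* and *Sox6* were 0.19 and 0.22, all past the threshold. The contrasts with Day 7 share the Day 7 libraries. All 3 members were thus called lower on Day 10 than on Day 7, in a comparison that called about as many genes as not.

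**Figure D1:**
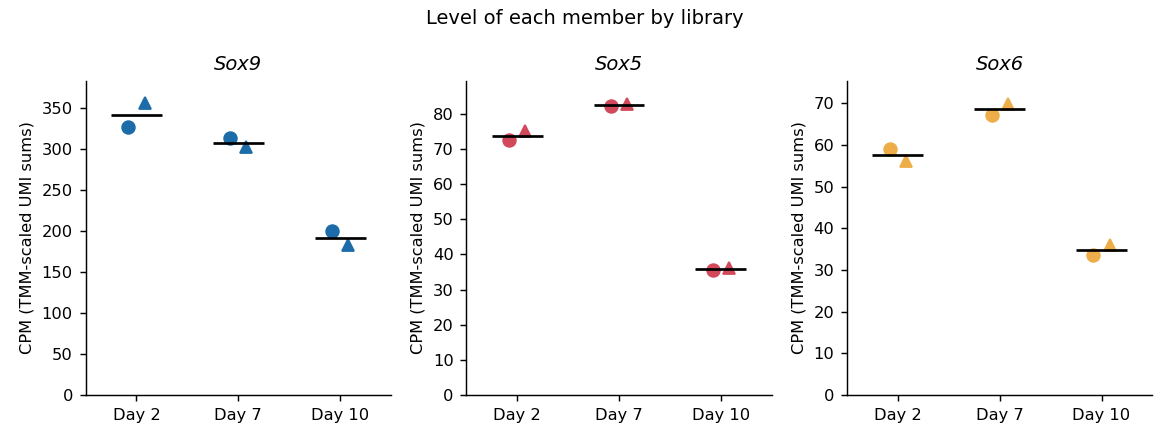
Level of each member in CPM (TMM-scaled sums of UMIs over all cells of a library) by day of culture, with circles for replicate A, triangles for replicate B and a bar at the mean of the 2. *Sox9* lies between 302 and 355 CPM on Day 2 and Day 7 and at 182 to 200 on Day 10, while *Sox5* and *Sox6* peak on Day 7 and reach 35.4 to 36.1 and 33.5 to 36.0 CPM on Day 10.

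In sums of all UMIs, the balance within the trio shifted with time. UMIs of 3′ libraries are not set per length, so the numbers below compare the same ratio between libraries, not the amount of 1 gene with that of another. Per 100 *Sox9* UMIs there were 22.2 and 21.1 *Sox5* UMIs in the Day 2 replicates, 26.3 and 27.4 in the Day 7 replicates, and 17.8 and 19.8 in the Day 10 replicates. For *Sox6* the ratio was 18.1 and 15.8 on Day 2, 21.5 and 23.2 on Day 7, and 16.8 and 19.8 on Day 10. The *Sox5* ratio did not overlap between days, and the *Sox6* ratio was highest in both Day 7 libraries and overlapped between Day 2 and Day 10. *Sox6* per 100 *Sox5* UMIs was 74.7 to 84.5 in the 4 earlier libraries and 94.4 and 99.7 on Day 10, without overlap. In cells without a *Matn1* UMI the *Sox5* ratio to *Sox9* on Day 7 reached 36.9 and 46.0, against 25.2 and 24.9 in cells with *Matn1*, while on Day 2 both classes lay between 20.6 and 24.6. On Day 10 it was 25.4 and 30.8 without *Matn1* and 16.0 and 17.1 with it. All of these ratios rest on sums in which deep cells weigh more. Thinned, Day 7 replicate A had *Sox6* at 84.7 CPM beside *Sox9* at 300, and Day 2 replicate A had 89.1 beside 453. Between these libraries the *Sox6* ratio was thus still higher on Day 7, although the *Sox6* level was not. For the other ratios and libraries the order by day need not hold with thinned cells. These ratios were not tested as such, and the tests on each gene in these classes follow.

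**Figure D2:**
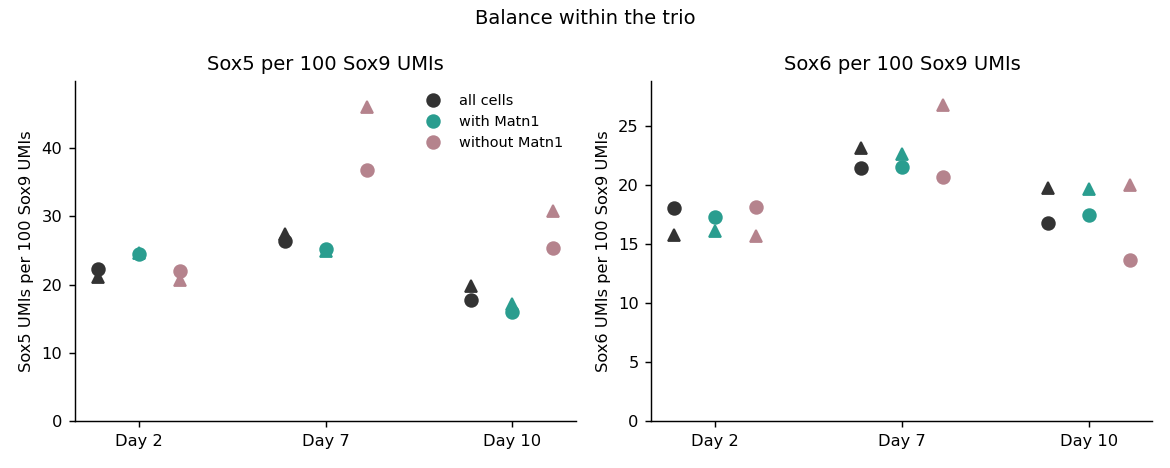
*Sox5* UMIs (left) and *Sox6* UMIs (right) per 100 *Sox9* UMIs by day of culture in all cells, in cells with and in cells without a *Matn1* UMI, with circles for replicate A and triangles for replicate B. *Sox5* stands at 36.9 and 46.0 in Day 7 cells without *Matn1*, and at 16.0 and 17.1 in Day 10 cells with *Matn1*.

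Transcripts of the trio were found in a large share of cells. A *Sox9* UMI was present in 78.7% and 66.3% of cells on Day 2, 71.9% and 67.7% on Day 7, and 72.7% and 67.1% on Day 10, at median depths of 3871 to 24197 UMIs. Depth differed between the libraries, so each cell was also thinned to 2000 UMIs, which left out 424 to 4217 shallower cells per library. Thinned, the *Sox9* shares were 43.9% and 48.1% on Day 2, 39.7% and 36.6% on Day 7 and 28.2% and 26.4% on Day 10 (exact 95% binomial interval of 42.9% to 45.0% in Day 2 replicate A, for counting error only). At equal depth the share thus descended from day to day without overlap, which the unthinned shares did not show.

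*Sox5* UMIs were present, after thinning, in 16.6% and 14.99% of cells on Day 2, 17.0% and 17.9% on Day 7 and 8.18% and 9.22% on Day 10, and *Sox6* UMIs in 14.3% and 11.9%, 14.5% and 16.6%, and 8.82% and 10.9%. Unthinned, *Sox5* was in 30.3% to 53.0% and *Sox6* in 27.5% to 49.8% of cells. Background, UMIs in cells that should lack the gene, was gauged in macrophages, cells with UMIs of at least 3 of 6 macrophage genes, which should lack the trio (19 to 198 cells per library, median 12088 to 28431 UMIs). Its source was not tested, and as doublets were not removed, free RNA in the droplets and doublets cannot be told apart. A *Sox9* UMI was found in 29.2% to 69.7% of them unthinned and in 8.16% to 26.3% thinned, below the share over all cells in each library after thinning. Thinned, 0 to 4 macrophages per library had a *Sox5* UMI, at most 8.70%, and 0 to 3 had a *Sox6* UMI, at most 4.35%, where 0 of 19, 0 of 31 and 0 of 138 cells allow shares of up to 15.8%, 9.68% and 2.17%. Some of the cells with a single *Sox9* UMI therefore lie within the background of these droplets, and the comparisons that follow use levels over sums of cells. Levels carry the same background. By total UMIs, macrophages had *Sox9* at 101 and 153 CPM on Day 2, 148 and 78.3 on Day 7 and 54.3 and 42.98 on Day 10, *Sox5* at 8.04 to 44.7 CPM and *Sox6* at 7.29 to 26.1 CPM over the 6 libraries, on 19 to 198 cells. A class whose level is near these values cannot be told from background.

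Members were found in the same cells more often than their separate shares would give. After thinning, *Sox5* and *Sox6* together were found in 4.69% and 3.42% of Day 2 cells, where independent detection would give 2.37% and 1.78%. The ratio of the 2 was 1.98 and 1.92 on Day 2, 1.41 and 1.39 on Day 7, and 1.72 and 1.94 on Day 10. For *Sox9* with *Sox5* it was 1.499 and 1.33, 1.20 and 1.14, and 1.38 and 1.502. The SoxD pair had the higher ratio in every library, and both pairs had their lowest on Day 7. The ratio cannot exceed the inverse of the commoner gene's share, and *Sox9* was found in more cells than *Sox5* or *Sox6*. It therefore does not rank the pairs, or days with other shares, by how closely the genes go together. All 3 members together were found in 3.44% and 2.42% of cells on Day 2, 1.81% and 1.84% on Day 7 and 0.478% and 0.840% on Day 10, and none of the 3 in 43.1% to 46.3% of cells on Day 2 and Day 7 and 62.2% and 62.3% on Day 10. These are descriptions of sparse counts in cells that share a library.

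Cells with a *Matn1* UMI had more of each member than cells without. Such cells made up 5.76% and 4.08% of Day 2 cells, 73.4% and 68.3% of Day 7 cells and 62.3% and 60.1% of Day 10 cells. *Sox9* was at 554 and 606 CPM in cells with *Matn1* and 313 and 341 CPM in cells without on Day 2. On Day 7 it was at 351 and 349 against 182 and 170 CPM, and on Day 10 at 241 and 226 against 117 and 104 CPM. In each of the 6 libraries the class with *Matn1* was the higher, and over the days *Sox9* was 1.96-fold higher with *Matn1* (log2 0.97, SE 0.016, adjusted p = 5.30e-13), in a split in which 49.0% of genes were called. The ratio was close to 2 on every day: 0.83 on Day 2, 0.996 on Day 7 and 1.08 on Day 10 on the log2 scale, a difference between Day 10 and Day 2 of 0.26 (adjusted p = 0.000567), where 19.2% of genes were called.

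*Sox6* had a mean split close in size to that of *Sox9*, 1.98-fold over the days (log2 0.98, SE 0.037, adjusted p = 6.62e-10). *Sox6* was at 96.0 and 97.8 CPM with and 56.9 and 53.6 CPM without *Matn1* on Day 2, and at 42.2 and 44.6 against 16.0 and 20.8 CPM on Day 10. Its split was wider on Day 10 (1.25) than on Day 2 (0.81), with a difference of 0.43 (adjusted p = 0.00574), which no longer passed without Day 2 replicate A (0.39). *Sox5* had the smaller split, 1.46-fold (log2 0.54, SE 0.029, adjusted p = 1.33e-08). It stood at 135 and 149 against 68.8 and 70.4 CPM on Day 2, at 88.2 and 87.0 against 67.0 and 78.0 CPM on Day 7, and at 38.5 and 38.8 against 29.7 and 31.9 CPM on Day 10. With *Matn1* alone of the split markers, however, Day 7 *Sox5* was at 98.9 and 100 CPM by total UMIs, below the 110 and 127 in cells with none of them. The *Sox5* split narrowed from 1.03 on Day 2 to 0.33 on Day 10, a difference of -0.70 (adjusted p = 3.80e-05), but with thinned cells this difference was 0.01 (adjusted p = 0.982). With thinned cells the classes, here and in the splits below, were set anew from the thinned counts. Only 132 and 220 Day 2 cells then had a *Matn1* UMI.

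*Matn1* UMIs themselves were part of the background: 75.8% and 60.4% of macrophages on Day 7 and 54.2% and 46.0% on Day 10 had one, against 0 of 24 and 0 of 19 on Day 2, which allow shares of up to 12.5% and 15.8%. A stricter class was therefore added after the data were seen, cells with at least 2 *Matn1* UMIs among 2000, which held 34 and 38 cells on Day 2, 3675 and 3392 on Day 7 and 1926 and 1834 on Day 10, and 4.95% to 10.2% of macrophages at the later days. Against cells with no *Matn1* UMI after thinning, these *Matn1*-high cells had 3.14-fold more *Sox9* (log2 1.65, SE 0.027, adjusted p = 1.05e-18), 2.11-fold more *Sox5* (log2 1.08, adjusted p = 3.53e-14) and 3.31-fold more *Sox6* (log2 1.73, adjusted p = 2.77e-13), where 44.5% of genes were called. On Day 10 the log2 differences were 2.10 for *Sox9*, 1.01 for *Sox5* and 2.35 for *Sox6*. With this class, the Day 10 minus Day 2 difference of the split was -0.56 for *Sox5* (adjusted p = 0.000374), 1.002 for *Sox6* (adjusted p = 6.72e-05) and 0.80 for *Sox9* (adjusted p = 1.91e-07). This contrast called 10.3% of genes and had a median of 0.26 over all genes, so that relative to it the *Sox5* difference is larger and the *Sox6* and *Sox9* differences are smaller.

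Graded by *Matn1*, the members had different shapes. The quantity here is the CPM by the total UMIs of a bin, without TMM scaling. In Day 7 replicate A, *Sox9* went from 169 in cells with no *Matn1* among 2000 UMIs to 277 with 1, 397 with 2 to 4 and 427 with 5 or more. In Day 10 replicate A the values were 115, 246, 404 and 442. The 4 Day 7 and Day 10 libraries thus differed in cells without *Matn1* and ended at 425 to 442 in the top bin, and in all 4 each bin was above the one before it. On Day 2 the bins with 0, 1 and 2 to 4 *Matn1* UMIs had 362, 721 and 948 CPM of *Sox9* in replicate A and 400, 755 and 1049 in replicate B, higher in each bin than at any later day, although the top bin held only 33 and 37 cells.

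*Sox5* was nearly flat beyond the lowest bin on Day 7 and Day 10. In Day 7 replicate A it stood at 63.8, 88.2, 92.7 and 86.9 CPM, and in Day 10 replicate A at 27.7, 46.7, 50.9 and 48.3. On Day 2 it went from 79.9 to 177 and 246 over the 3 bins in replicate A and from 84.5 to 169.5 and 268 in replicate B. *Sox5* in the cells richest in *Matn1* was thus lower on Day 10 (48.3 and 51.5) than on Day 7 (86.9 and 84.4). *Sox6* went from 34.6 to 75.5 and 91.4 over the 3 lower bins in Day 7 replicate A and from 16.5 to 50.1 and 78.4 in Day 10 replicate A, and stood at 90.2 and 83.4 in the top bin on Day 7 and 80.2 and 80.9 on Day 10.

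**Figure D3:**
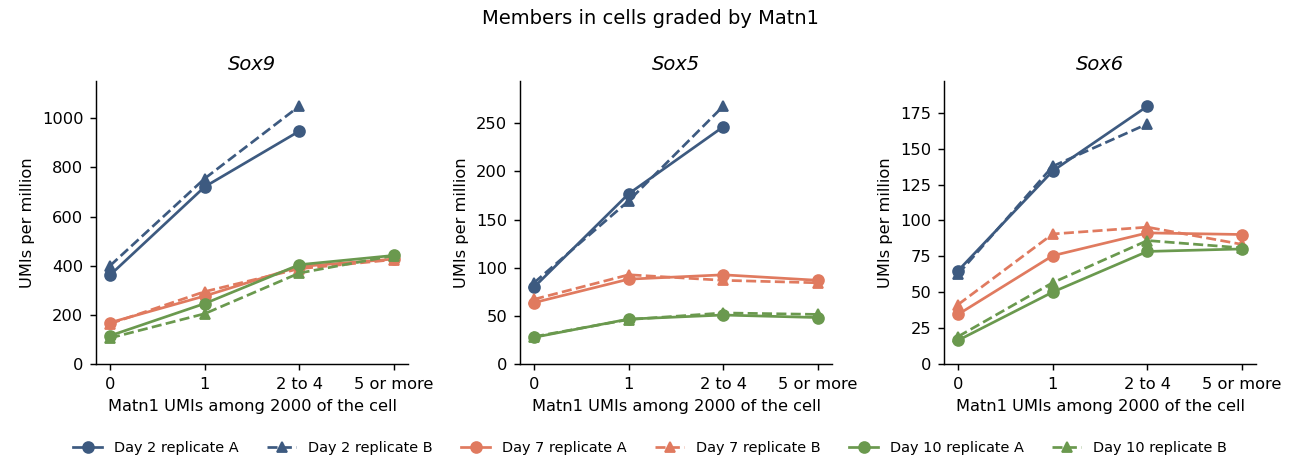
UMIs of each member as CPM of the bin's total UMIs (y axis) in cells with 0, 1, 2 to 4 or 5 or more *Matn1* UMIs among 2000 UMIs of the cell (x axis), with 1 line per library. In the top bin *Sox9* is at 425 to 442 in all 4 Day 7 and Day 10 libraries, while *Sox5* is at 84.4 and 86.9 on Day 7 and 48.3 and 51.5 on Day 10.

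The change between days was then measured within the classes. A *Matn1* UMI marked 5.76% and 4.08% of cells on Day 2 and 73.4% and 68.3% on Day 7. A class therefore need not hold the same kind of cells on each day, and share and level cannot be told apart. In cells with a *Matn1* UMI, *Sox9* was at 547 and 598 CPM on Day 2, 342 and 341 on Day 7 and 239 and 224 on Day 10. Day 2 lay above Day 7 and Day 7 above Day 10, although whole cultures had changed little between Day 2 and Day 7. The log2 change was -0.74 from Day 2 to Day 7 (adjusted p = 3.92e-06) and -0.56 from Day 7 to Day 10 (adjusted p = 7.13e-05), in comparisons in which 57.6% and 50.3% of genes were called, and -1.31 from Day 2 to Day 10 (adjusted p = 4.14e-08), where 65.0% were. *Sox5* fell in the same class by 0.71, 1.16 and 1.87 on the log2 scale, and *Sox6* by 0.34, 0.82 and 1.15, all past the threshold. With thinned cells the *Sox9* fall from Day 7 to Day 10 was -0.19 (adjusted p = 0.272) the *Sox5* fall from Day 2 to Day 7 was -0.21 (adjusted p = 0.418) and the *Sox6* changes were -0.12, -0.17 and -0.29, none of which passed. *Sox5* kept its falls from Day 7 to Day 10 (-0.81, adjusted p = 1.97e-06) and from Day 2 to Day 10 (-1.02).

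In the *Matn1*-high cells the estimates of the 3 members differed from Day 7 to Day 10, but the members were not tested against each other. *Sox9* did not change detectably from Day 7 to Day 10 (log2 -0.03, SE 0.070, adjusted p = 0.759), *Sox6* fell by 0.19 (SE 0.050, adjusted p = 0.00463) and *Sox5* fell by 0.84 (SE 0.053, adjusted p = 9.01e-10), where 42.9% of genes were called. From Day 2 to Day 7 the changes were -0.75 for *Sox9*, -1.06 for *Sox5* and -0.43 for *Sox6*, and from Day 2 to Day 10 they were -0.78, -1.90 and -0.62, where 26.9% and 34.3% of genes were called. All 6 passed (adjusted p from 3.28e-11 to 0.00290), but the Day 2 sums rest on 34 and 38 cells. These were 0.379% and 0.310% of the thinned Day 2 cells, whereas the class held 38.0% and 34.2% on Day 7. The median of all genes in the 2 contrasts was 0.19 and 0.21, so that relative to it each fall is larger by that amount.

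In cells without a *Matn1* UMI, *Sox9* was at 317 and 346 CPM on Day 2, 185 and 173 on Day 7 and 119 and 105 on Day 10. It fell by 0.89 and then 0.68 on the log2 scale, and by 1.57 from Day 2 to Day 10 (adjusted p = 1.15e-05, 0.000334 and 2.14e-07), in comparisons that called 62.7%, 45.3% and 74.9% of genes. With *Sox9* lower on Day 7 in both classes and not called in the whole, the rise in the share of cells with *Matn1*, from 4.08% and 5.76% to 68.3% and 73.4%, stood beside a fall in each class. On Day 7, 75.8% and 60.4% of macrophages also had a *Matn1* UMI, so this share includes background. Thinned, 98.5% and 98.2% of Day 2 cells and 48.6% and 52.8% of Day 7 cells had none. *Sox5* was at 69.6 and 71.4 CPM on Day 2, 68.3 and 79.5 on Day 7 and 30.1 and 32.3 on Day 10 in cells without a *Matn1* UMI. Its Day 2 and Day 7 cultures overlapped (log2 0.07, SE 0.076, adjusted p = 0.459), although with thinned cells the change was 0.28 and passed (adjusted p = 0.0194), and without Day 7 replicate B it was -0.047. The Day 10 cultures were lower than all others (-1.24 from Day 7, adjusted p = 2.97e-05). *Sox6* changed by -0.40 from Day 2 to Day 7 (adjusted p = 0.0170; 0.02 with thinned cells, and lost without Day 2 replicate A at -0.36 and without Day 7 replicate A at -0.30) and by -1.19 from Day 7 to Day 10 (adjusted p = 0.000271).

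Cells with a *Tnmd* UMI, 6.34% to 14.1% of a library, had less of each member. *Sox9* was at 148 and 172 CPM in them on Day 2, 205 and 215 on Day 7 and 170 and 152 on Day 10, against 353 and 387, 325 and 312, and 203 and 186 CPM in cells without. The class with *Tnmd* was lower in all 6 libraries, and the gap narrowed with time. The Day 10 direction depended on the class. With *Tnmd* alone of the split markers *Sox9* was at 170 and 153 CPM by total UMIs, above the 164 and 139 in cells with none of them. From Day 2 to Day 7 *Sox9* went up in cells with *Tnmd* and down in cells without, and by Day 10 both classes were below their Day 7 level. Over the days *Sox9* was 1.62-fold lower (log2 -0.70, SE 0.018, adjusted p = 3.04e-13), *Sox5* 2.46-fold (log2 -1.30, adjusted p = 1.71e-14) and *Sox6* 2.24-fold lower (log2 -1.16, adjusted p = 7.12e-13), where 46.1% of genes were called. The log2 difference for *Sox9* was -1.21 on Day 2, -0.60 on Day 7 and -0.27 on Day 10, and the Day 10 minus Day 2 difference, 0.94 (adjusted p = 3.18e-09), was called beside 20.8% of genes and kept its call with thinned cells (0.69, adjusted p = 0.00599). The same difference was 1.04 for *Sox5* and 0.84 for *Sox6* (adjusted p = 8.31e-08 and 6.65e-06), and 0.11 and 0.00 with thinned cells, where neither passed.

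*Tnmd* UMIs were also part of the background. They were in 2 of 24 (8.33%) and 0 of 19 macrophages on Day 2, where 7.81% and 8.26% of all cells had one, in 12.1% and 9.43% of macrophages on Day 7, where 6.34% and 6.77% of all cells did, and in 4.23% and 4.55% on Day 10, where 14.1% and 12.0% did. The macrophages were the deeper cells, but thinned to 2000 UMIs the Day 7 shares were 3.23% and 2.04% of macrophages (1 of 31 and 1 of 49 cells) and 2.41% and 2.44% of all cells, and on Day 2 they were 0 of 23 and 0 of 19 macrophages and 1.68% and 3.65% of all cells. On these few macrophages, cells with 1 *Tnmd* UMI cannot be told from background on Day 2 and Day 7. With at least 2 *Tnmd* UMIs against none, the log2 differences over the days were -0.89 for *Sox9*, -1.67 for *Sox5* and -1.55 for *Sox6*, all past the threshold. The share of all genes called in this stricter split is not reported here (46.1% with 1 UMI or more), so the calls cannot be weighed against it. The narrowing by day was not measured in that class.

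*Sox5* in cells with *Tnmd* was at 21.2 and 20.7 CPM on Day 2, 44.1 and 42.4 on Day 7 and 21.04 and 19.5 on Day 10. In cells without *Tnmd* it was at 79.97 and 84.0, 86.7 and 87.7, and 38.1 and 38.9 CPM. In both classes the Day 7 cultures were the highest, and with *Tnmd* the Day 2 and Day 10 cultures overlapped. *Sox6* in these cells was at 19.7 and 20.8, 35.2 and 35.4, and 22.1 and 19.96 CPM. On Day 2 the macrophages of the same libraries had *Sox5* at 44.7 and 15.7 CPM, *Sox6* at 26.1 and 19.7 CPM and *Sox9* at 101 and 153 CPM by total UMIs. The Day 2 levels of *Sox5* and *Sox6* in cells with *Tnmd*, from which the narrowing is counted, therefore lie at or near the background, although the scalings differ. By total UMIs, Day 2 cells with *Tnmd* alone of the split markers had *Sox9* at 239 and 264 CPM and *Sox6* at 34.5 and 44.9, above the macrophages. Their *Sox5*, at 32.4 and 41.1, was above the macrophages in replicate B only. These macrophages were 24 and 19 cells.

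Cells with a *Cnn1* UMI, 24.9% to 41.2% of a library, had each member at a lower level on every day. *Sox9* was at 228 and 274 CPM with *Cnn1* against 453 and 448 without on Day 2, 207 and 215 against 396 and 375 on Day 7, and 141 and 132 against 270 and 240 on Day 10. No culture overlapped with the other class. A *Cnn1* UMI was also found in 29.2% and 26.3% of macrophages on Day 2, 18.2% and 20.8% on Day 7 and 16.2% and 15.2% on Day 10, below the share of all cells in each library. After thinning it was in 4 of 23 and 2 of 19 macrophages on Day 2 (17.4% and 10.5%), where 12.4% and 16.6% of all cells had one, so that on Day 2 the class with 1 UMI cannot be told from background. With at least 2 *Cnn1* UMIs against none, the log2 differences over the days were -1.31 for *Sox9*, -1.62 for *Sox5* and -1.88 for *Sox6*, all past the threshold. Here too the share of all genes called is not reported (67.3% with 1 UMI or more).

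Over the days the log2 difference between cells with and without a *Cnn1* UMI was -0.87 for *Sox9* (SE 0.036, adjusted p = 3.82e-08), -1.11 for *Sox5* (SE 0.031, adjusted p = 7.47e-09) and -1.30 for *Sox6* (SE 0.032, adjusted p = 5.01e-09), where 67.3% of genes were called. *Sox9* had -0.85, -0.87 and -0.90 on Day 2, Day 7 and Day 10, and -0.71, -1.01 and -0.99 with thinned cells. Its Day 10 minus Day 2 difference of -0.05 did not pass (adjusted p = 0.714), was -0.28 with thinned cells and turned to 0.090 without Day 2 replicate B, neither past the threshold. That of *Sox5* did not pass either (0.17, adjusted p = 0.123; -0.16 with thinned cells, and 0.26 and past the threshold without Day 2 replicate B), in a contrast that called 28.0% of genes. *Sox6* widened from -1.13 to -1.48 (difference -0.36, adjusted p = 0.00813), which did not pass with thinned cells (-0.53, adjusted p = 0.131).

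Cells with a *Prg4* UMI, 0.989% to 11.7% of a library, again had less of each member. *Sox9* was at 174 and 212 CPM with *Prg4* on Day 2, 170 and 161 on Day 7 and 118 and 113 on Day 10, against 334 and 364, 334 and 319, and 216 and 195 CPM without. The log2 difference over the days was -0.89 for *Sox9* (adjusted p = 1.05e-17), -0.62 for *Sox5* (adjusted p = 3.01e-12) and -1.05 for *Sox6* (adjusted p = 6.93e-16), where 31.0% of genes were called. A *Prg4* UMI was found in 6.06% and 5.66% of macrophages on Day 7, where 5.87% and 4.28% of all cells had one, and in 4.93% and 5.05% on Day 10, where 11.7% and 9.95% did. On Day 2 it was in 0 of 24 and 0 of 19, which allow up to 12.5% and 15.8%, beside 1.59% and 0.989% of all cells. Thinned, Day 7 replicate A had 0 of 31, which allows up to 9.68%, beside 2.39% of all cells. In that library, unthinned, *Prg4* itself was at 2.06 CPM in macrophages and 41.1 in all cells by total UMIs. By their share, cells with 1 *Prg4* UMI cannot be told from background on Day 2 and Day 7. With at least 2 *Prg4* UMIs against none, the log2 differences over the days were -1.38 for *Sox9*, -0.83 for *Sox5* and -1.55 for *Sox6*, all past the threshold, where the share of all genes called is not reported. *Sox5* had a small difference on Day 10, where it was at 32.0 and 33.8 CPM with and 36.4 and 36.8 CPM without *Prg4* (log2 -0.15, SE 0.048, adjusted p = 0.0179, 30.3% of genes called). This call was lost without Day 10 replicate A (-0.12), with DESeq2 (-0.13), in cells with at least 3000 UMIs (-0.13) and in exclusive classes (-0.051), the values without 1 library ranged from -0.19 to -0.12, and with thinned cells the difference was -0.73 and passed. The *Sox5* split had been -0.99 on Day 2, and the difference of 0.83 (adjusted p = 1.03e-06), in a contrast that called 18.6% of genes, was -0.05 with thinned cells and no longer passed. Thinned, however, the Day 2 class with *Prg4* held only 21 and 58 cells of 2000 UMIs each. Thinned differences from Day 2 in this split therefore rest on very few UMIs and cannot show that an effect is absent or reversed. On Day 2, cells with *Prg4* had *Sox5* at 40.4 and 35.4 CPM and *Sox6* at 29.8 and 26.1. The macrophages had 44.7 and 15.7 and 26.1 and 19.7 by total UMIs, so these levels lie near background. *Sox9* and *Sox6* had differences of 0.03 and 0.05 that did not pass (adjusted p = 0.785 and 0.830), and their direction depended on the setting, at -0.47 for *Sox9* with thinned cells and -0.053 and -0.040 with another scaling (RLE size factors), and for *Sox9* at -0.034 without Day 2 replicate A and -0.0054 without Day 10 replicate B, none past the threshold.

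**Figure D4:**
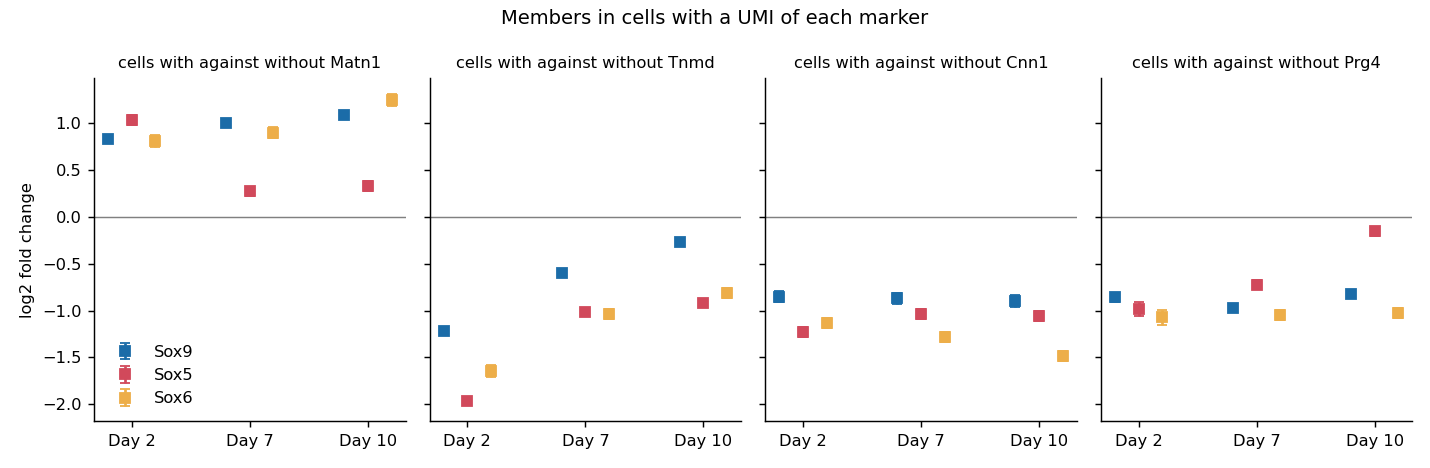
Log2 fold change of each member in cells with against cells without a UMI of *Matn1*, *Tnmd*, *Cnn1* or *Prg4*, by day of culture, with SE bars that are mostly smaller than the symbols. Values for *Matn1* lie above 0 (0.27 to 1.25) and those for the other markers below it, with *Sox5* nearest to 0 in *Prg4* cells on Day 10 (-0.15).

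A cell can hold UMIs of several markers, and the classes above differ in depth (cells with *Cnn1* had medians of 9724 to 34131 UMIs, those without 2908 to 15020). In exclusive classes, cells with UMIs of 1 of the 4 markers and none of the others, *Sox9* on Day 2 was highest with *Matn1* alone and lowest with *Tnmd* alone in both libraries. By total UMIs, it was at 780 and 878 CPM in cells with *Matn1* alone, 520 and 507 in cells with none of the 4, 348 and 290 with *Prg4* alone, 261 and 326 with *Cnn1* alone and 239 and 264 with *Tnmd* alone, so that the *Prg4* and *Cnn1* classes overlapped. On Day 10 it was at 322 and 302 with *Matn1*, 164 and 139 with none, 170 and 153 with *Tnmd*, 81.6 and 71.1 with *Cnn1*, and 104 and 84.9 with *Prg4*. On Day 10 *Tnmd* cells were above marker-free cells within each library (log2 0.14), although the ranges of the classes overlapped. *Matn1* cells were the highest in every library and *Cnn1* cells the lowest on Day 7 and Day 10.

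*Sox5* in exclusive *Matn1* cells was at 209 and 233 CPM on Day 2, 98.9 and 100.01 on Day 7 and 50.8 and 54.0 on Day 10, against 124 and 118, 110 and 127, and 49.1 and 52.0 in marker-free cells. By these levels it was lower on Day 7 with *Matn1* alone than with none of the markers in both libraries, while the TMM-scaled fit gave a log2 difference of only -0.07. On Day 10 it was slightly higher with *Matn1* alone within each library, and the ranges of the classes overlapped. *Sox6* kept its order, at 62.8 and 70.7 with *Matn1* alone, 30.5 and 41.7 with none and 7.98 and 8.15 with *Cnn1* alone on Day 10, where the last is at the level of the macrophages (7.29 and 7.58). *Sox9* with *Cnn1* alone was at 118 and 112 CPM on Day 7, also within the range of the macrophages of that day.

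Further splits placed the trio beside other limb cell types. Cells with *Ihh*, the signal of prehypertrophic chondrocytes, had log2 differences of 1.19 for *Sox9*, 0.67 for *Sox5* and 0.99 for *Sox6* (adjusted p from 5.56e-17 to 6.67e-15), where 62.3% of genes were called, and with thinned cells that of *Sox5* was 0.14 (adjusted p = 0.452). *Sox9* in them was at 645 and 727 CPM on Day 2, 469 and 482 on Day 7 and 424 and 430 on Day 10. An *Ihh* UMI was in 0% to 7.55% of macrophages and in 3.74% to 12.2% of all cells, with the lower observed share in macrophages in each library. In the Day 2 replicates and Day 7 replicate A it was in 0 of 24, 0 of 19 and 0 of 33 macrophages. These allow up to 12.5%, 15.8% and 9.09%, beside 6.32%, 3.74% and 8.61% of all cells. By its share, the class cannot be told from background in these libraries. Cells with *Gdf5*, a growth factor of the joint interzone, had 0.65, 0.54 and 0.58 for *Sox9*, *Sox5* and *Sox6* (adjusted p = 4.53e-08, 3.52e-07 and 2.88e-06, 33.2% of genes called), and their *Sox9* stayed at 362 to 437 CPM in all 6 libraries while it fell in cells without *Gdf5* from 301 and 335 to 189 and 173. A *Gdf5* UMI was in 12.5% and 10.5% of macrophages on Day 2, where 23.5% and 11.5% of all cells had one, and in 0% to 3.03% on the later days, where 3.16% to 8.12% did, so that in Day 2 replicate B the class cannot be told from background. With thinned cells the differences were 0.40, 0.84 and 0.44, all past the threshold, where the share of all genes called is not reported.

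Cells with *Col10a1*, the collagen of hypertrophic cartilage, had less *Sox9* than the rest on Day 2 and more on Day 10. On Day 2 it was at 276 and 294 CPM with and 329 and 360 CPM without *Col10a1*, a log2 difference of -0.27 (adjusted p = 2.63e-05), and that of *Sox6* was -0.66 and that of *Sox5* -0.40, where 15.8% of genes were called. With thinned cells *Sox9* kept its call (-0.57, adjusted p = 0.0115), whereas *Sox6* (-0.66, adjusted p = 0.371) and *Sox5* (-0.35, adjusted p = 0.709) did not, and *Sox5* also lost it without Day 2 replicate B (-0.31, adjusted p = 0.0890). Over the days the log2 difference was -0.04 for *Sox9* (adjusted p = 0.0655; -0.26 and past the threshold with thinned cells), -0.27 for *Sox5* (adjusted p = 9.86e-05) and -0.32 for *Sox6* (adjusted p = 2.10e-05), where 23.8% of genes were called. On Day 10, where *Col10a1* cells were 27.5% and 21.3% of the cultures, *Sox9* was at 219 and 206 CPM with and 189 and 173 CPM without it, a log2 difference of 0.23 (adjusted p = 8.16e-05, 10.2% of genes called) that did not pass with thinned cells (0.11). *Sox5* (-0.04) and *Sox6* (0.04) did not pass on Day 10, and both changed sign without Day 10 replicate A (0.031 and -0.033). The Day 10 minus Day 2 difference was 0.4998 for *Sox9* (adjusted p = 3.62e-06), 0.70 for *Sox6* (adjusted p = 0.000253) and 0.36 for *Sox5* (adjusted p = 0.0235), where 9.92% of genes were called. With thinned cells the *Sox9* difference still passed (0.68, adjusted p = 0.0428) and those of *Sox6* (0.59) and *Sox5* (0.36) did not, and that of *Sox5* was also lost without Day 2 replicate B (0.28). A *Col10a1* UMI was found in 20.4% and 12.6% of macrophages on Day 10, so that part of the Day 10 class lies within the background of these droplets. On Day 2 it was in 0 of 24 and 0 of 19, which allow up to 12.5% and 15.8%, beside 2.95% and 2.18% of all cells. By its share, the Day 2 class cannot be told from background either.

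Cells with *Myog*, a muscle regulator, could be compared on Day 2 and Day 7 only and had -0.84, -0.73 and -0.53 for *Sox9*, *Sox5* and *Sox6* (adjusted p = 0.000151, 0.00222 and 0.00109, 20.1% of genes called). The values of *Sox9* and *Sox5* rest on Day 2 (-1.15 and -1.19, both past the threshold, 23.4% of genes called), since on Day 7 *Sox9* had -0.54 (adjusted p = 0.0701) and *Sox5* -0.27 (adjusted p = 0.576), where 10.0% were called. The median of all genes was -0.22 over the days, -0.05 on Day 2 and -0.32 on Day 7. Relative to it each difference is smaller in size, and *Sox5* on Day 7 is not lower. *Sox5* in *Myog* cells was at 43.7 and 117 CPM in the Day 7 replicates, on either side of the 88.7 and 88.1 CPM in the other cells. On Day 2 a *Myog* UMI was in 1 of 24 and 2 of 19 macrophages (4.17% and 10.5%) and in 4.74% and 4.17% of all cells, so that this class cannot be told from background by its share. The *Sox6* value did not pass without either Day 2 library (-0.51 without replicate A, -0.49 without replicate B). With thinned cells it was -0.26 and did not pass either, but this value is of Day 2 alone, where the unthinned difference was -0.46. Thinned, Day 7 replicate A held only 11 cells with *Myog*, under the minimum of 20.

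The cartilage genes that the trio is known to activate moved far more than the trio from Day 2 to Day 7, but not from Day 7 to Day 10. Of 26 such genes, all 26 rose from Day 2 to Day 7, with a median log2 change of 3.76 beside 0.01 over all genes, of which 35.7% were called higher, while the trio lay between -0.15 and 0.25. *Col2a1*, the main cartilage collagen, went from 548 and 607 CPM to 9281 and 8526, and *Acan*, the large proteoglycan, from 24.6 and 32.9 to 1112 and 1021. From Day 7 to Day 10, 25 of the 26 fell (median -0.85 beside -0.02 over all genes, of which 25.9% were called lower) in the same direction as the trio, whose members fell by 0.69 to 1.21. *Col2a1* fell by 0.66 and *Acan* by 0.55, and *Comp*, a matrix protein of cartilage and tendon, rose by 0.77 to 857 and 744 CPM. Day 10 against Day 2, 23 of the 26 were higher and *Cytl1*, *Nkx3-2* and *Wwp2* lower, where 39.0% and 38.2% of all genes were. *Wwp2* encodes a ubiquitin ligase that interacts with SOX9. Cells with *Matn1* had all 25 other genes of the list higher over the days (median 2.67 beside -0.03 over all genes, of which 21.9% were called higher).

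Genes of hypertrophy and bone took another course. All 12 listed rose from Day 2 to Day 7 (median 1.42 beside 0.01 over all genes, of which 35.7% were called higher) and 11 rose again from Day 7 to Day 10 (median 1.30), where 26.3% of all genes were called higher, while *Vegfa*, an angiogenic factor, had -0.11 (adjusted p = 0.0823). *Runx2*, the regulator of hypertrophy and osteoblasts, was at 28.2 and 30.7 CPM on Day 2, 49.1 and 47.5 on Day 7 and 62.9 and 66.1 on Day 10, and *Ibsp*, a bone matrix sialoprotein, rose from 3.56 and 5.35 to 531 and 757 CPM over the last interval. The trio fell over the interval in which these genes rose. Both lists were counted, not tested as sets.

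**Figure D5:**
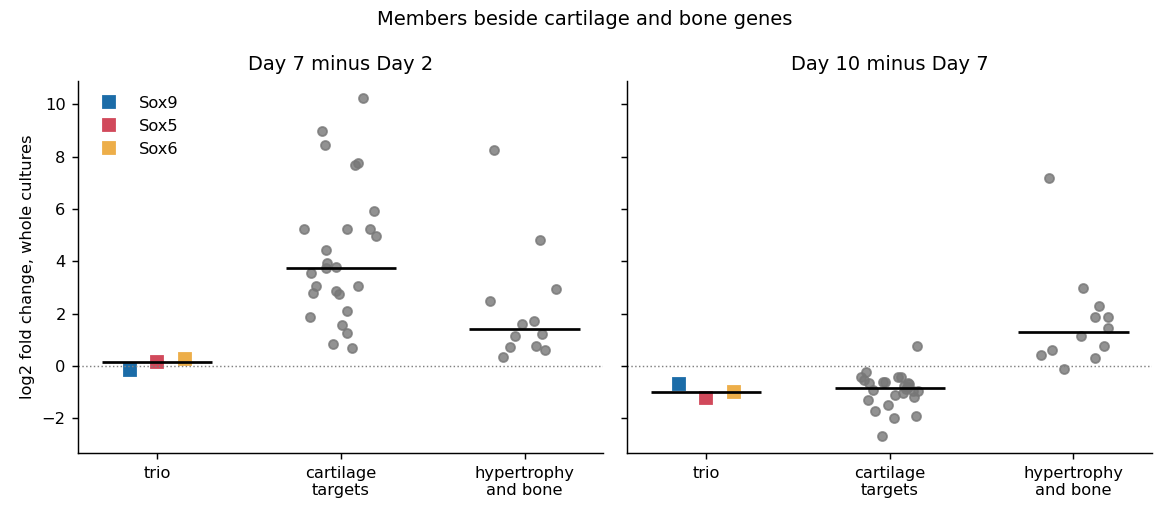
Log2 fold change in whole cultures for the trio, 26 cartilage genes it is known to activate and 12 genes of hypertrophy and bone, each point a gene and each bar the median of its group. The cartilage genes have a median of 3.76 from Day 2 to Day 7 and -0.85 from Day 7 to Day 10, and the hypertrophy and bone genes 1.42 and 1.30.

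Of the 16 other genes of the SOX family in the matrices, 12 had enough UMIs to be tested. From Day 2 to Day 7, 8 of the 12 fell and 2 rose, and from Day 7 to Day 10, 5 fell and 1 rose. Of all genes tested, 34.6% were called lower and 35.7% higher in the first interval, and 25.9% and 26.3% in the second. *Sox8*, the SoxE paralog of *Sox9*, was at 3.47 and 3.62 CPM on Day 2, 12.1 and 12.2 on Day 7 and 5.84 and 5.14 on Day 10, a rise of 1.78 and a fall of 1.15 on the log2 scale (adjusted p = 1.51e-07 and 1.79e-05). *Sox8* was also 1.87 higher (log2) in cells with *Matn1* (adjusted p = 8.38e-11). *Sox13*, the third SoxD gene, fell by 0.71 from Day 2 to Day 7 and did not pass after that (-0.09), and *Sox10*, the neural crest SoxE gene, was down to 2 UMIs in each Day 10 library from 84 and 94 on Day 2. The SoxC genes *Sox4*, *Sox11* and *Sox12*, named for their counts in these libraries, fell from Day 2 to Day 7 by 0.89, 2.25 and 1.03 on the log2 scale. From Day 7 to Day 10 *Sox11* fell by 0.73 and *Sox12* by 0.20, and *Sox4* had -0.12 (adjusted p = 0.108).

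The genes most like each member were sought over 30 sums, the 5 exclusive classes of the 6 libraries, among 8136 genes with a mean of at least 10 CPM, by Pearson's r of log2(CPM + 1). The sums of a library share its depth and its cells' culture, so r is a description. For *Sox9* the closest were *Stk26* (r = 0.966), *Adgra3* (0.960), *1700025G04Rik* (0.947), *Mia2* (0.937) and *Gpc6* (0.927), with *Sox6* next in sixth place (0.926) and *Sox5* far behind (0.794). For *Sox6* they were *Fam135a* (0.966), *Kcnq1ot1* (0.960), *Wwp2* (0.943), *Airn* (0.936) and *Rflna* (0.930), with *Sox9* sixth. For *Sox5* they were *Lpar4* (0.924), *Sned1* (0.919), *Gpsm2* (0.906), *Sgk3* (0.901) and *Cytl1* (0.883), with *Sox6* at 0.867.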

How the data were processed

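Single-cell counts were analysed from 6 libraries, 2 independent cultures for each of 3 days. The authors deposited raw UMI counts per gene and barcode, made per the submitters' notes with Cell Ranger 6.1.2 (STAR, GRCm38), with Seurat 4.1.0 for their own analysis. The cell limits of the study's methods were applied per library (over 800 or 1000 UMIs, 200 to 7500 genes, mitochondrial share under 25% to 40%, ribosomal under 35% or 40%). Doublets were not removed. UMIs were summed per library, or per library and class of cells with or without a marker UMI (at least 20 cells), and tested with edgeR 4.0.16 in R 4.3.3 (filterByExpr, TMM, quasi-likelihood test, library as covariate between classes of the same library, Benjamini-Hochberg adjustment over all genes tested, threshold 0.05). With 2 cultures per day, p-values of changes between days measure the spread between these cultures. Those of marker splits measure how the difference between the classes varies from library to library. The code was tested on simulated data. The study compared clusters of cells, so its own test was not used. Alternatives were RLE size factors, DESeq2 1.42.0, no filter on low counts, other filters on cells, thinning to 2000 UMIs per cell (Python 3.11.15, numpy 2.4.6), stricter or exclusive classes, a replicate block and leaving out each library. Named were the members, the SOX family, fixed lists of cartilage and of hypertrophy and bone genes, and the 5 genes most like each member. Members and lists were chosen with earlier results of these data known.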

Additional observations from a re-analysis of the deposited data

Results flagged for a closer look

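For each of these results the split by a marker gave another effect at Day 10 than at Day 2, by a contrast of the 2 effects in the fit (edgeR quasi-likelihood test). The difference, Day 10 minus Day 2 on the log2 scale, was -0.70 for *Sox5*, 0.43 for *Sox6* and 0.26 for *Sox9* in the split by *Matn1*. In the split by *Tnmd* it was 1.04 for *Sox5*, 0.84 for *Sox6* and 0.94 for *Sox9*. It was -0.36 for *Sox6* in the split by *Cnn1* and 0.83 for *Sox5* in the split by *Prg4*. In the split by *Col10a1* it was 0.36 for *Sox5*, 0.70 for *Sox6* and 0.4998 for *Sox9*. With thinned cells, 7 of the 11 no longer passed the threshold.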

How the results depend on the processing

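Over 63 results on the members and 3 counts of genes called, 680 of 720 alternatives kept the direction and the side of the threshold. Thinning to 2000 UMIs per cell gave more of the exceptions than any other setting. In whole cultures it brought the Day 10 minus Day 2 change of *Sox6* to -0.22, the Day 7 minus Day 2 change of *Sox9* to -0.39 (past the threshold, as were -0.17 with DESeq2 and -0.17 in cells with at least 3000 UMIs), and the genes called between Day 7 and Day 10 from 9913 to 4673. In cells with *Matn1* it gave -0.21 for *Sox5* and -0.12 for *Sox6* (Day 7 minus Day 2), -0.17 for *Sox6* and -0.19 for *Sox9* (Day 10 minus Day 7) and -0.29 for *Sox6* (Day 10 minus Day 2), none of which passed. In cells without it, Day 7 minus Day 2, it gave 0.28 for *Sox5*, which passed, and 0.022 for *Sox6*. The Day 10 minus Day 2 difference of a split became 0.014 (*Sox5*, *Matn1*), 0.11 (*Sox5*, *Tnmd*), -0.0039 (*Sox6*, *Tnmd*), -0.16 (*Sox5*, *Cnn1*), -0.53 (*Sox6*, *Cnn1*), -0.049 (*Sox5*, *Prg4*) and -0.47 (*Sox9*, *Prg4*), none past the threshold. The *Prg4* values rest on only 21 and 58 Day 2 cells with the marker. The split by *Ihh* became 0.14 for *Sox5*, that by *Myog* -0.26 for *Sox6* (Day 2 alone) and that by *Col10a1* -0.26 for *Sox9*, which passed, and at Day 10 the split by *Col10a1* was 0.0099 for *Sox5* and -0.064 for *Sox6*. RLE size factors turned the *Prg4* difference to -0.040 for *Sox6* and -0.053 for *Sox9*, neither called. With *Matn1*-high cells, *Sox9* from Day 7 to Day 10 was -0.031, and *Sox5* without *Matn1* from Day 2 to Day 7 was -0.13. In exclusive classes the split was -0.071 for *Sox5* by *Matn1* at Day 7 and 0.14 for *Sox9* by *Tnmd* at Day 10. Thinning leaves fewer UMIs, leaves out shallower cells and gives each cell the same weight. In the splits it also sets the classes anew from the thinned counts, so that a class does not hold the same cells. The class with *Matn1* went from 73.4% to 51.4% of cells in Day 7 replicate A. That with *Cnn1* went from 41.2% to 12.4% in Day 2 replicate A. Which of these gave the changes was not tested.

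Leaving out each library in turn gave -0.20 to -0.086 for *Sox9* and 0.14 to 0.19 for *Sox5* in whole cultures (Day 7 minus Day 2), and -0.047 to 0.14 for *Sox5* and -0.55 to -0.30 for *Sox6* in cells without *Matn1*. *Sox9* from Day 2 to Day 7 passed without Day 2 replicate A (-0.20), and *Sox6* without *Matn1* did not pass without Day 2 replicate A (-0.36) or Day 7 replicate A (-0.30). The differences between Day 10 and Day 2 ranged from 0.31 to 0.60 (*Sox6*, *Matn1*), 0.083 to 0.26 (*Sox5*, *Cnn1*), -0.19 to 0.090 (*Sox9*, *Cnn1*) and -0.034 to 0.13 (*Sox9*, *Prg4*). The splits ranged from -0.65 to -0.35 (*Sox6*, *Myog*), -0.051 to -0.037 (*Sox9*, *Col10a1*), and at Day 10 from -0.10 to 0.031 (*Sox5*) and -0.033 to 0.12 (*Sox6*, *Col10a1*).

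Same-lettered libraries had no visible deviation from the day means in common, with correlations of -0.027, -0.090 and -0.078 over 8031 genes. This cannot show whether same-lettered cultures shared embryos or seeding, which the labels do not state. A fit with the replicate block changed no call among 30 results (for example -1.87 for *Sox5* in cells with *Matn1*, Day 10 minus Day 2).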
